A study of Mus musculus with 6 samples.

Results

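Glycolysis and hypoxia response genes were followed in primary stromal cells that had been plated on collagen with or without aortic carboxypeptidase-like protein (ACLP), a secreted protein that binds fibrillar collagen. The set held 40 genes chosen by name, and 41 of the 56748 rows of the deposited count table carried one of these names because 2 rows were named Aldoa. The row with the identifier that the GENCODE annotation gives Aldoa was used, and the other row had 8 to 34 counts per library. Of the 40 genes, 24 cover the route from glucose uptake to lactate export, and the other 16 are hypoxia response genes of other functions. All 40 passed the filter on low counts and were tested among 17717 genes.

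Cells of 3 libraries had grown on type I collagen alone (col1), and those of the other 3 on collagen polymerized with 30 nM recombinant ACLP (col1-ACLP). In both groups they were wild-type cells of the gonadal white fat of 12-week-old C57BL/6 mice of both sexes, taken as the stromal vascular fraction, and were kept for 48 h on 12 kPa hydrogels with a coat of 0.05 mg/mL collagen. The fraction is a mixture of cells and was plated without sorting, the labels name no hypoxic exposure, and they do not say whether libraries came from separate animals, so the p-values cover only variation among the 6 libraries, which may be technical, although the study speaks of biological replicates.

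Glycolysis splits glucose into pyruvate in the cytosol and yields ATP without oxygen, and cells that rely on it export lactate through monocarboxylate transporters. When oxygen falls, prolyl hydroxylases no longer mark the α subunits HIF-1α (Hif1a) and HIF-2α (Epas1) for destruction, and these then pair with ARNT and bind the core sequence RCGTG near glycolytic genes and other targets. HIF activity is set mostly at the protein level, which RNA counts do not measure. In fat, HIF signalling is known in the expanding depots of obesity, where it has been linked to fibrosis.

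On col1-ACLP the cells carried more mRNA for the hexokinase Hk2 and the lactate exporter Slc16a3, at the entry and the exit of glycolysis, while the 5 members with the highest level per kilobase were not called. The membrane carbonic anhydrase Car12 and the mitophagy receptor Bnip3 were also raised, together with the enolase copy Eno1b, and Epas1 and the vasoactive peptide gene Adm were lowered. Reads shared with other genes make the values of Slc16a3, Bnip3, Eno1b and Adm uncertain, and these 4 genes lost their call in 3 to 5 of the 6 fits that left out 1 library. To count as raised or lowered a gene needed a Benjamini-Hochberg adjusted p under 0.05 over all tested genes in the quasi-likelihood test of edgeR, together with an absolute log2 fold change (col1-ACLP over col1) above 0.58. By this rule 3 of the 24 glycolysis genes were raised and 0 lowered, and 2 of the 16 other hypoxia genes were raised and 2 lowered. Of all tested genes 0.66% were raised and 0.722% lowered, 1.38% in all. Without the fold threshold 5 glycolysis genes were up and 0 down, and 4 of the others were up and 2 down, against 0.931% up and 1.12% down, 2.05% in all, of the tested genes. The number of called glycolysis genes was 1 without col1 replicate 3 or without col1-ACLP replicate 3, and that of the other hypoxia genes was 2 without col1 replicate 1, without col1-ACLP replicate 1 or without col1-ACLP replicate 2.

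The median log2 fold change was 0.13 over the 24 glycolysis genes and 0.18 over the other 16, against 0.01 over all tested genes. The glycolysis median was 0.05 without col1 replicate 3. Positive values were found for 34 of the 40 genes, compared with 51.1% of all tested genes. The 3 col1-ACLP libraries lay wholly above the 3 col1 libraries for 16 of the 40 and wholly below for 4, whereas this held for 10.2% of all genes in each direction, 20.4% in all. In bulk RNA a change in the number of cells of a type and a change in the RNA of each cell cannot be told apart.

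In the GRCm39 coordinates of the deposited table, the called genes are protein-coding and span chr6:82702006-82751435 on the minus strand (Hk2, ENSMUSG00000000628) and chr11:120839306-120851694 on the plus strand (Slc16a3, ENSMUSG00000025161). Car12 (ENSMUSG00000032373) spans chr9:66620968-66674127 on the plus strand, Bnip3 (ENSMUSG00000078566) chr7:138492565-138511248 on the minus strand and Adm (ENSMUSG00000030790) chr7:110226868-110229027 on the plus strand. Epas1 (ENSMUSG00000024140) spans chr17:87061128-87140838 and Eno1b (ENSMUSG00000059040) chr18:48178402-48181479, both on the plus strand.

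**Figure D1:**
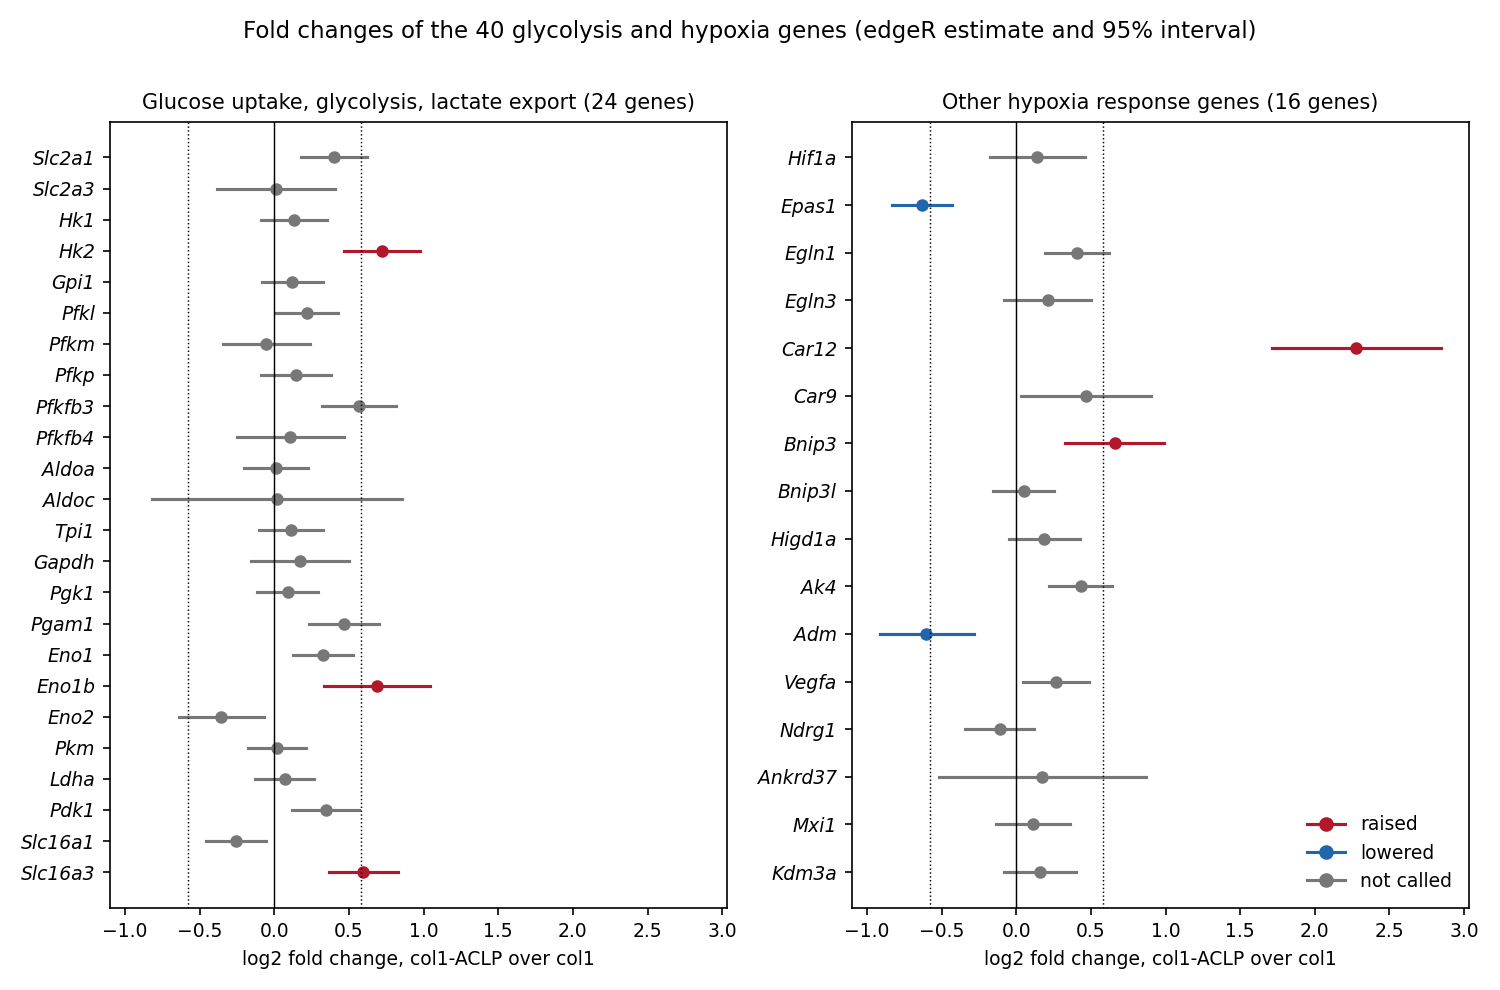
Log2 fold change of each of the 40 genes on col1-ACLP relative to col1 (x axis), with the edgeR estimate as a point and its 95% interval as a line. Dotted lines mark 0.58 in each direction. Car12 stands apart at 2.28, Epas1 (-0.63) and Adm (-0.60) are the lowered genes, and most glycolytic enzymes lie near 0.

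Library totals ran from 33343651 to 47142754 counts, and 3 counts, the floor for detection, lay at 0.0624 to 0.0889 CPM, a unit that sets each count against the TMM-scaled total of its library. Values of the 3 libraries of a group follow in replicate order, with col1 before and col1-ACLP after the word against. The lowest member, Aldoc, was at 1.48 CPM or more in every library. Over both groups the mesenchymal markers Col1a1, Dcn and Pdgfra averaged 6856, 1841 and 939 CPM. The 8 lymphocyte markers summed to 11.3 to 17.9 CPM with Ms4a1 at 0 counts in all libraries. Summed levels of the macrophage, endothelial, mesothelial, mural and adipocyte markers overlapped between the groups. The summed level of 8 mast cell markers did not overlap, at 65.1 to 85.1 CPM against 39.9 to 51.6, and 4 of the 6 tested were lowered. Of the 8 mesenchymal markers 1 was raised and 2 were lowered, and 1 mesothelial marker was lowered. Raised Col1a1 averaged 5022 CPM on col1 and 8690 on col1-ACLP. Lowered Ly6a averaged 2161 and 1345 CPM, and lowered Cd34 240 and 153. Dcn averaged 2202 and 1481 CPM, under the fold threshold (edgeR adjusted p = 0.006678). The share of counts in the 10 highest genes was 5.67 to 6.38% against 7.08 to 8.38%, and mitochondrial genes held 6.14% of counts in col1-ACLP replicate 2 and 2.91 to 4.27% in the other 5 libraries. The part of mast cells, of shifts among mesenchymal cells and of these shares in the values below was not tested.

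Promoter windows of the 5 called genes with an entry in the RefSeq promoter table are printed here because HIF is known to bind the cores ACGTG and GCGTG, for which both strands were searched. Each window runs from 250 bases before to 50 after an annotated start in GRCm38.p6, 5′ to 3′ on the gene's strand, with matches on either strand in capitals. Car12 lies at chr9:66713436-66713735 on the plus strand and Hk2 at chr6:82774405-82774704 on the minus strand. Bnip3 lies at chr7:138909457-138909756 on the minus strand, Slc16a3 at chr11:120948817-120949116 on the plus strand and Adm at chr7:110627407-110627706 on the plus strand.
Car12: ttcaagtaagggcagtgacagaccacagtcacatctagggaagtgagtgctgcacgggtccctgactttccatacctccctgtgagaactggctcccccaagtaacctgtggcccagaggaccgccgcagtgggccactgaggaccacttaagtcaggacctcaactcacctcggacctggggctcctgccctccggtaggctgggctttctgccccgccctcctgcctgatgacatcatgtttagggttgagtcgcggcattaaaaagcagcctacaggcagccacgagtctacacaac
Hk2: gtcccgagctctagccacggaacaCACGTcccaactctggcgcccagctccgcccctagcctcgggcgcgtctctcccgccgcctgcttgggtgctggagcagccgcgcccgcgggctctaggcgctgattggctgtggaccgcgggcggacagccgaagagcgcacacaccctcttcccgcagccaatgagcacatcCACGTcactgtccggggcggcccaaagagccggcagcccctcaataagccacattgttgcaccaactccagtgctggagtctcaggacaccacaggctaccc
Bnip3: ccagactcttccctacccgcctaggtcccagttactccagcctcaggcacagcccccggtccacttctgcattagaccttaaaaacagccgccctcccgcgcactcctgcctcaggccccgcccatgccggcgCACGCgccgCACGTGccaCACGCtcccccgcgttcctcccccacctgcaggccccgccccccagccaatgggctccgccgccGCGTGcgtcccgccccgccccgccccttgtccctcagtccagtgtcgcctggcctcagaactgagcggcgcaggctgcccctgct
Slc16a3: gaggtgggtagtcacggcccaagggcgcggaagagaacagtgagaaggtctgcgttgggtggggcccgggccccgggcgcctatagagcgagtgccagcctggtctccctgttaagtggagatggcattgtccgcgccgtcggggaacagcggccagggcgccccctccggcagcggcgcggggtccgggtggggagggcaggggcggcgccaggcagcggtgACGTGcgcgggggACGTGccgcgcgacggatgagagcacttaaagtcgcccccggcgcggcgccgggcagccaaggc
Adm: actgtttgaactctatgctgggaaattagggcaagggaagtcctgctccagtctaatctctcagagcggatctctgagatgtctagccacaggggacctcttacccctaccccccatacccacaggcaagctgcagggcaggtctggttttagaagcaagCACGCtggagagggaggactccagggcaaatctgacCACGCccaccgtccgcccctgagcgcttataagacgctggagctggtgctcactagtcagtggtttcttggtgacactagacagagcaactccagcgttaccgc

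The Bnip3 window held 5 matches in 4 separate sites, 2 of them opposite-strand readings of the palindrome CACGTG, which is also the E-box of MYC-family factors. The Hk2 window held 2 matches of ACGTG on the opposite strand, at -226 to -222 and -52 to -48 from the start. Slc16a3 held 2 of ACGTG, at -27 to -23 and -14 to -10, and Adm held 2 of GCGTG on the opposite strand. The Car12 window held 0 matches, which says only that these letters are not in this window. The table had entries for 35 of the 40 genes, in 56 windows. Of these windows 76.8% held at least 1 site and 55.4% held 2 or more, where 43.8% and 17.3% of all 32851 windows did. Windows were not matched for base composition, and some genes had several windows. The genes were chosen by name as glycolysis and hypoxia genes, so these shares say nothing about a response to ACLP. Raised Hk2, Bnip3 and Slc16a3 and lowered Adm all held matches. By gene, 31 of the 35 (88.6%) held a site in at least 1 window, against 46.7% of all genes with windows. Matches in the called genes therefore do not set them apart from the other members.

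Of the hexokinases, which phosphorylate glucose at its entry into glycolysis, Hk2 was raised and Hk1 and Hk3 were not called. Hk2, which encodes the inducible hexokinase that binds the outer mitochondrial membrane, was at 69.0, 72.8 and 61.6 CPM against 132, 102 and 102. Every col1-ACLP library lay above every col1 library, with col1-ACLP replicate 1 the highest. The log2 fold change was 0.72 ± 0.12 (SE, n = 3 libraries per group, adjusted p = 0.004298 in the edgeR test), and it stayed between 0.59 and 0.79 with each library left out. Hk1, the constitutive hexokinase, was at 157, 143 and 127 CPM against 162, 148 and 159, with overlapping groups and a log2 fold change of 0.13 (95% interval -0.09 to 0.35). Per kilobase of gene length, Hk2 made up 38.6, 42.1 and 40.9% of the Hk1 and Hk2 levels against 53.8, 49.6 and 48.0%. The share was higher by 9.92 percentage points, with no overlap (exact permutation test, two-sided, p = 0.1, the smallest that 3 against 3 libraries can give). Hk3, which this share leaves out, was at 10.65 CPM per kilobase on col1 and 9.584 on col1-ACLP, beside 11.36 and 18.73 for Hk2. The Hk3 groups overlapped (log2 fold change -0.15, 95% interval -0.40 to 0.10).

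Neither glucose transporter passed the main edgeR test. Slc2a1, which encodes the basal transporter GLUT1, was at 149, 182 and 154 CPM against 223, 200.3 and 217. The groups did not overlap, but the log2 fold change of 0.40 ± 0.11 had an adjusted p = 0.06213 in the main edgeR fit. The adjusted p was 0.01941 in edgeR with no low-count filter, 0.006175 in DESeq2 and 0.03814 in limma-voom. The log2 fold change stayed under the fold threshold in each. The adjusted p ran from 0.006175 to 0.2471 over all alternatives. Slc2a3, the high-affinity GLUT3 gene, ran from 12.4 to 18.6 CPM over all libraries with a log2 fold change of 0.01 (95% interval -0.39 to 0.41). On the length-scaled level Slc2a1 was the main transporter, with Slc2a3 at 4.14% of their sum on col1 and 3.23% on col1-ACLP.

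At the step of phosphofructokinase, the regulator Pfkfb3 passed the p threshold but not the fold threshold, and none of the 3 enzyme subunits passed the test. Pfkfb3 makes fructose 2,6-bisphosphate, the activator of phosphofructokinase, and was at 40.2, 47.4 and 43.05 CPM against 70.9, 59.3 and 63.3. The groups were fully separate. Its log2 fold change of 0.57 ± 0.12 (edgeR adjusted p = 0.01677) fell just short of the fold threshold, and it ranged from 0.49 to 0.62 with adjusted p from 0.02007 to 0.08212 with 1 library left out. It passed both thresholds without col1 replicate 2 (0.62) and without col1-ACLP replicate 2 (0.62). The related Pfkfb4 reached at most 15.6 CPM on col1 and 16.2 on col1-ACLP, with overlapping groups (0.10 ± 0.17).

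The liver-type subunit Pfkl held 82.8% of the length-scaled phosphofructokinase level on col1 and 84.4% on col1-ACLP. Its own level was 462 to 540.5 CPM against 544 to 591, narrowly separate, with a log2 fold change of 0.22 that did not pass (edgeR adjusted p = 0.3024). The muscle-type Pfkm and platelet-type Pfkp stood at -0.05 and 0.15, with overlapping groups. Both values are uncertain, since Pfkm overlaps Senp1, with 143% of its counts, and Pfkp overlaps Pitrm1, with 33.5%, each on the opposite strand. The level and the shares of Pfkl are uncertain too. Of the short sequence words of its transcripts, 36.5% also occur in transcripts of other genes, most of them (29.3%) in Cfap410.

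Of the 5 most abundant members, Ldha, Pkm, Pgk1 and Aldoa overlapped between the groups and Eno1 did not, though it did not pass the test. Per kilobase, the 5 highest members were Ldha, Pkm, Pgk1, Aldoa and Eno1, at 643, 631, 572, 573 and 337 CPM per kilobase on col1. Pkm, pyruvate kinase, was at 3447, 3017 and 3004 CPM against 3084, 3151 and 3348, a log2 fold change of 0.02 (95% interval -0.18 to 0.21). Ldha, which turns pyruvate into lactate, stood at 0.07 (-0.13 to 0.27), Aldoa, the main aldolase, at 0.01 (-0.20 to 0.22) and Pgk1, the first ATP-yielding kinase, at 0.09 (-0.11 to 0.29). As counted, the intervals of these 4 genes lie below the value of Hk2, but 53.4% of the 31-base words of Pgk1, 38.2% of those of Pkm, 34.1% of those of Aldoa and 21.1% of those of Ldha also occur in transcripts of other genes. Tpi1, triose phosphate isomerase, and Gpi1, glucose-6-phosphate isomerase, stood at 0.11 and 0.12, also with overlapping groups. Of the 31-base words of Tpi1 26.5% occur in other transcripts too, so its level is uncertain.

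**Figure D2:**
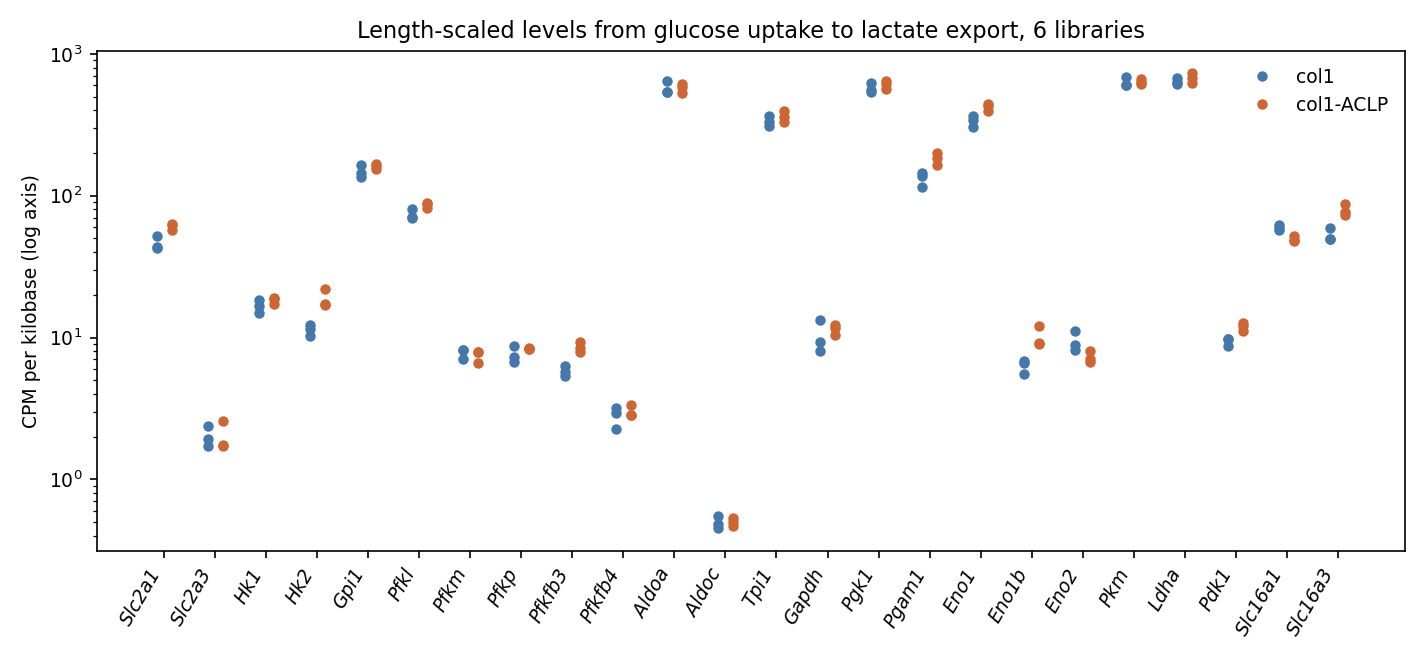
Length-scaled level of the 24 glycolysis genes (CPM per kilobase, log axis) in each of the 6 libraries, in pathway order. Pkm, Ldha, Pgk1 and Aldoa share the top, with blue (col1) and orange (col1-ACLP) points intermixed. Groups are separate with col1-ACLP higher for 9 genes, Hk2, Pfkfb3, Pgam1 and Slc16a3 among them. They are separate with col1-ACLP lower for 2, Eno2 and Slc16a1.

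Gapdh, the glyceraldehyde-3-phosphate dehydrogenase often used as a reference gene, was counted at 33.3 to 54.5 CPM against 43.3 to 50.7, or 10.2 and 11.45 CPM per kilobase, far under its neighbours in the pathway. Of its 31-base words 43.0% also occur in transcripts of other genes, most of them in Iffo1 (36.8%), which overlaps it on the opposite strand with 42.5% of its counts. How the authors counted reads that map to several places is not given in the sources used here, so the Gapdh level is uncertain, and the cause of its low count was not tested. The second aldolase gene Aldoc was at 1.48 to 1.80 CPM and made up 0.0878% of the aldolase level in both groups.

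Toward the end of the pathway Pgam1 passed the p threshold but not the fold threshold, and Eno1 passed neither. Pgam1, phosphoglycerate mutase, was at 273, 285 and 228 CPM against 397, 324 and 368, with separate groups. Its log2 fold change was 0.47 ± 0.11 (edgeR adjusted p = 0.03644, 0.02447 to 0.2102 with 1 library left out). Of its 31-base words 38.2% occur in other transcripts, so its level is uncertain. Its named retrocopies held 917 counts against 76320 for Pgam1. How reads with several positions were counted is not given, so these counts cannot show how far Pgam1 is affected. Eno1, the main enolase, was at 1950, 1850 and 1641 CPM against 2131, 2315 and 2373, a log2 fold change of 0.33 ± 0.10 that did not pass in edgeR (adjusted p = 0.09591) but was under 0.05 in DESeq2 (0.01638) and limma-voom (0.04804), with a range of 0.01638 to 0.3688 over all alternatives, although every col1-ACLP library was above every col1 library.

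Eno1b is a retrotransposed enolase copy that shares 90.9% of its 31-base words with transcripts of other genes, most of them (84.2%) with the gene model Gm75782, and 11.8% of the words of Eno1 occur in Eno1b, so its call and its ratio to Eno1 are uncertain. It was at 12.7, 12.3 and 10.3 CPM against 22.7, 17.2 and 16.9, with separate groups and a log2 fold change of 0.69 ± 0.17 (edgeR adjusted p = 0.04244). Its counts were 0.652, 0.666 and 0.629% of those of Eno1 against 1.07, 0.745 and 0.714%. Thus its ratio to Eno1 did not overlap between groups and was highest in col1-ACLP replicate 1. The call was lost without col1 replicate 1 (0.74), col1 replicate 2 (0.71), col1 replicate 3 (0.59), col1-ACLP replicate 1 (0.53) and col1-ACLP replicate 3 (0.76), with adjusted p from 0.04416 to 0.207 over the 6 omissions.

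Eno2, the neuronal enolase, had the opposite sign. It was at 38.4, 41.6 and 51.9 CPM against 31.9, 37.9 and 33.3, a log2 fold change of -0.36 ± 0.14 that did not pass (edgeR adjusted p = 0.2089). Its share of the length-scaled level of Eno1 and Eno2 was 2.73 ± 0.674% on col1 and 1.70 ± 0.13% on col1-ACLP (SD, n = 3), without overlap (exact permutation p = 0.1).

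Of the transporters that carry lactate across the plasma membrane, Slc16a3 was raised and Slc16a1 had the opposite sign without passing the test. Slc16a3 encodes MCT4, the exporter typical of glycolytic cells, and was at 316, 261 and 262 CPM against 390.1, 411 and 468. All col1-ACLP libraries were above all col1 libraries. The rise was 0.60 ± 0.11 on the log2 scale (edgeR adjusted p = 0.00693), close to the fold threshold. It was 0.54 without col1 replicate 2, 0.54 without col1 replicate 3 and 0.52 without col1-ACLP replicate 3, where the call was lost (adjusted p from 0.005044 to 0.07114 over the 6 omissions). Slc16a3 overlaps Csnk1d on the opposite strand, a gene with 54.8% of its counts, which makes the value uncertain, while Csnk1d itself stood at -0.16 ± 0.11.

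Slc16a1, the gene of the widely expressed MCT1, was lower in every col1-ACLP library, at 252, 260.3 and 274 CPM against 211, 217 and 229. The log2 fold change of -0.26 did not pass (95% interval -0.46 to -0.06, edgeR adjusted p = 0.1944). Per kilobase, Slc16a3 made up 51.1, 45.5 and 44.3% of the sum of both against 60.6, 61.1 and 62.9%, 14.6 percentage points more (exact permutation p = 0.1). Pdk1 encodes the kinase that inhibits pyruvate dehydrogenase and so the conversion of pyruvate to acetyl-CoA. It was at 67.5 to 76.3 CPM against 86.5 to 98.4, separate but not past adjustment in edgeR (0.34 ± 0.11, adjusted p = 0.1165). The adjusted p was 0.03142 in DESeq2 and 0.09291 in limma-voom, with the log2 fold change under the fold threshold in each.

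**Figure D3:**
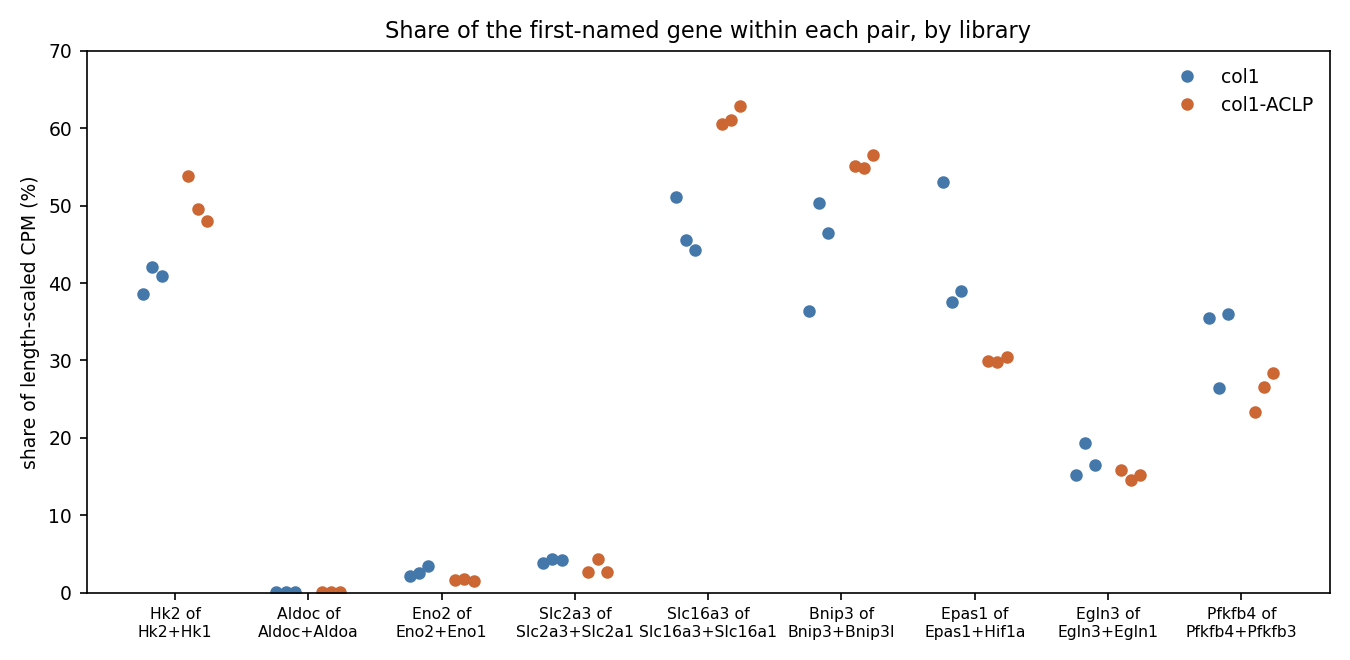
Share of the first-named gene in the length-scaled level of each pair (percent), with 1 point per library (blue col1, orange col1-ACLP). The Hk2, Slc16a3 and Bnip3 shares are higher and the Epas1 and Eno2 shares lower in all col1-ACLP libraries, whereas Slc2a3 and Pfkfb4 overlap.

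Shares were compared for 12 genes in 10 such groups of related genes. In 6 of the 12 the groups did not overlap and the exact permutation p was 0.1, which gave an adjusted p = 0.2 over the 12, so no share can pass in this design. Besides the shares of Hk2, Eno2 and Slc16a3 these were Bnip3, Epas1 and Pfkm.

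Among the HIF genes themselves, Epas1 was lowered. Epas1, which encodes HIF-2α, was at 282, 254.5 and 270.1 CPM against 173.5, 175 and 171. The 3 col1-ACLP libraries lay close together and far under the col1 range. On the log2 scale the difference was -0.63 ± 0.10 (edgeR adjusted p = 0.001509), and it kept its call with each library left out (-0.68 to -0.60). Epas1 is known to be high in endothelial cells. The summed level of 10 endothelial markers was 1182 to 1407 CPM against 1027 to 1314, and 0 of the 10 were called by edgeR, with 0 past an unadjusted p of 0.05 upward and 3 downward. The part of endothelial cells in the Epas1 value was not tested.

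Hif1a was not called in any fit. It was at 264, 446 and 445 CPM against 429.7, 435 and 409.7, so that col1 replicate 1 stood apart from the other 5 libraries. The log2 fold change was 0.14 (95% interval -0.17 to 0.46) and became -0.07 without that library. Epas1 made up 53.0, 37.6 and 39.0% of the length-scaled level of both α subunits against 29.9, 29.8 and 30.5% (exact permutation p = 0.1), the highest value coming from the col1 library with low Hif1a.

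Egln1 encodes PHD2, the main prolyl hydroxylase that marks HIF-α, and was at 176, 164 and 154 CPM against 200.4, 222 and 232. The groups were separate, and the log2 fold change of 0.40 ± 0.10 passed the p threshold under the fold threshold (edgeR adjusted p = 0.04826). In edgeR the adjusted p was 0.05041 with DESeq2 size factors, 0.06941 with upper-quartile factors and 0.04371 to 0.2407 with 1 library left out. With the replicate block Egln1 did not pass either. The adjusted p was 0.01761 in edgeR with no low-count filter, 0.002761 in DESeq2 and 0.02862 in limma-voom. Egln3, which encodes PHD3, was at 22.5 to 29.25 CPM against 27.8 to 30.9 and overlapped (0.21 ± 0.14). Of 13 other regulators of the pathway, such as Arnt, Vhl, Egln2 and Hif1an, 0 were called in either direction by edgeR and 0 were past an unadjusted p of 0.05. The largest values there were 0.49 ± 0.97 for the low-count Hif3a and -0.34 ± 0.21 for Arnt2.

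**Figure D4:**
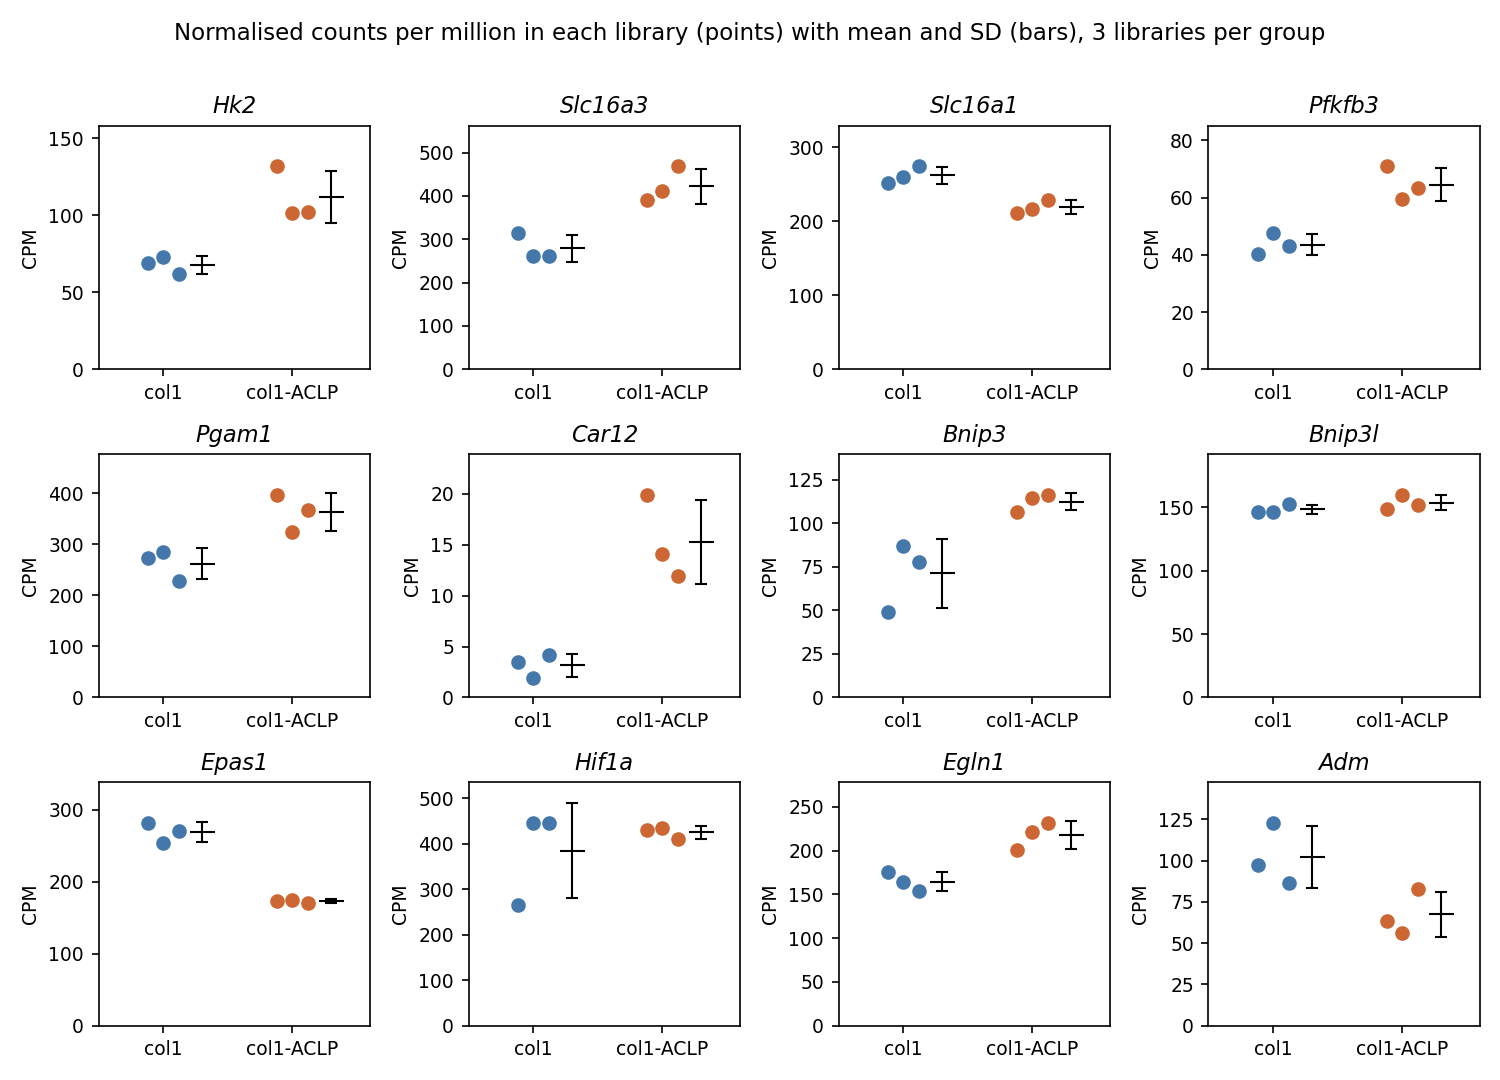
CPM in each library for 12 of the genes (points), with the mean and SD of 3 libraries per group beside them. Epas1 lies in a narrow band of 171 to 175 on col1-ACLP, Bnip3l is level where Bnip3 is separate, and the low col1 point of Hif1a and of Bnip3 is the same library, replicate 1.

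Car12 had the largest fold change of the set. It encodes carbonic anhydrase XII, a membrane enzyme with its active site outside the cell that helps to clear the acid of glycolysis, and it was at 3.44, 1.91 and 4.12 CPM against 19.9, 14.0 and 11.9. The lowest col1-ACLP library was well above the highest col1 library. In log2 terms the rise was 2.28 ± 0.27, about 4.85-fold (edgeR adjusted p = 0.0001535), and 2.00 to 2.51 with each library left out. Car9, the classic hypoxia-induced anhydrase of the same type, was at 6.46, 5.16 and 7.38 CPM against 7.64, 10.15 and 8.44, separate but not past adjustment (0.47 ± 0.21, adjusted p = 0.2961). Per kilobase, Car12 was below Car9 in both groups, at 0.416 against 2.75 on col1 and 2.01 against 3.80 on col1-ACLP. Of 16 carbonic anhydrase genes 11 were tested, and Car12 was the only one called. After Car12 the largest value was 0.67 ± 0.60 for the low-count Car7.

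Of the genes for mitochondrial proteins of the hypoxia response, Bnip3 was raised and its paralog was not called. Bnip3, a receptor that targets mitochondria for autophagy, was at 49.1, 86.9 and 77.6 CPM against 107, 114 and 116. The groups were separate, with col1 replicate 1 far below the other col1 libraries. Of the 31-base words of Bnip3 36.9% also occur in transcripts of other genes, so its level is uncertain. The log2 fold change was 0.66 ± 0.16 (edgeR adjusted p = 0.03706). It was 0.45 without col1 replicate 1, 0.71 without col1 replicate 3, 0.69 without col1-ACLP replicate 1, 0.65 without col1-ACLP replicate 2 and 0.63 without col1-ACLP replicate 3, where the call was lost (adjusted p from 0.017 to 0.1422 over the 6 omissions). Bnip3l, its paralog NIX, was at 147, 146 and 153 CPM against 148, 160.1 and 152, a log2 fold change of 0.05 (95% interval -0.15 to 0.25).

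Ak4, a mitochondrial adenylate kinase, was at 88.1, 85.1 and 78.7 CPM against 111, 114 and 114. These separate groups gave a log2 fold change of 0.43 ± 0.10, under the fold threshold (edgeR adjusted p = 0.03408, 0.04239 to 0.1921 with 1 library left out). Higd1a, a regulator of respiratory complexes, overlapped between groups, at 112 to 124 and 113 to 144 CPM (0.19 ± 0.11).

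The secreted factors had opposite signs, and Adm passed the test. Adm, which encodes adrenomedullin, a vasodilator peptide and a common marker of hypoxia, was at 97.5, 123 and 86.2 CPM against 63.5, 56.0 and 82.6. The highest col1-ACLP library came close to the lowest col1 library without overlap. The difference was -0.60 ± 0.15 on the log2 scale (edgeR adjusted p = 0.04587). Of the 31-base words of Adm 29.7% also occur in transcripts of other genes, most of them (28.8%) in the gene model Gm72687, so its level is uncertain. The call was lost without col1 replicate 1 (-0.64), col1 replicate 2 (-0.46), col1-ACLP replicate 1 (-0.56) and col1-ACLP replicate 2 (-0.48), with adjusted p from 0.02694 to 0.162 over the 6 omissions. Vegfa, the main angiogenic growth factor, was at 204, 244 and 244 CPM against 298, 264 and 269.8, separate but not past adjustment (0.27 ± 0.10, adjusted p = 0.2274).

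The related genes of both secreted factors were also read. Adm2, which encodes the related peptide intermedin, was raised from 1.10, 0.645 and 2.06 CPM to 2.68, 3.22 and 7.005, a log2 fold change of 1.76 ± 0.44 just inside the p threshold (edgeR adjusted p = 0.04982). Adrenomedullin acts through the receptor Calcrl with a Ramp2 or Ramp3 partner, and these stood at -0.27, -0.48 and -0.74, none past adjustment. The scavenger receptor Ackr3 was lower, from 192, 224 and 208 CPM to 156, 142 and 168, a log2 fold change of -0.42 ± 0.10 under the fold threshold (adjusted p = 0.0456). Of the 9 tested genes of this family 1 was raised and 1 lowered, against 0.66% and 0.722% of all tested genes. The low-count Calcb stood at 0.77 ± 0.46.

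Of 10 VEGF ligands and receptors, 1 was raised and 1 lowered, against 0.66% and 0.722% of all tested genes. Nrp1, a co-receptor for VEGF and semaphorins, went from 48.8, 57.2 and 55.0 CPM to 101, 82.0 and 76.4 (0.69 ± 0.12, edgeR adjusted p = 0.006492). Vegfd, a lymphangiogenic ligand, went from 238, 199.8 and 174 CPM to 136, 115 and 140.5 (-0.65 ± 0.12, adjusted p = 0.009427). In both genes the groups were fully separate, as they were for 20.4% of all tested genes.

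None of the 4 remaining intracellular targets was called. Ndrg1, a stress-induced protein, was at 63.7 to 71.7 CPM against 58.55 to 66.5 (-0.11 ± 0.11). Kdm3a, a histone demethylase, stood at 0.16 ± 0.12 and the MYC antagonist Mxi1 at 0.11 ± 0.12, with Mxi1 at 31.45 to 33.7 CPM against 34.2 to 35.3. Ankrd37 was at 1.85 to 4.05 CPM (0.17 ± 0.33), and it overlaps Ufsp2, a gene with 1650% of its counts, which makes the value uncertain.

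Further genes of the pathway were read from lists chosen for function, with earlier results of these data known. Of 22 tested genes of glycolysis and glycogen metabolism 0 were called and 1 passed without the fold threshold. This was Gys1, glycogen synthase, which went from 112, 102 and 99.8 CPM to 136, 139 and 149 (0.43 ± 0.10, edgeR adjusted p = 0.03275). The low-count Gapdhs stood at 1.10 ± 0.77. Of 15 genes of pyruvate oxidation and transport 0 were called by edgeR, with 0 past an unadjusted p of 0.05 upward and 1 downward. That gene was Pdp1, a phosphatase that reactivates pyruvate dehydrogenase, at 31.9, 42.0 and 37.7 CPM against 26.3, 26.7 and 27.7 (-0.47 ± 0.13, adjusted p = 0.0791). The transporter Slc16a7 stood at -0.53 ± 0.41.

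Of 25 further hypoxia targets 0 were called and 2 were up without the fold threshold, with a median log2 fold change of 0.22 and 11 up and 3 down at an unadjusted p of 0.05. Of all 17717 tested genes 1346 were up and 1287 down at that p. The mTOR inhibitor Ddit4 went from 169.6, 139 and 162 CPM to 246, 214 and 228 (0.55 ± 0.11, edgeR adjusted p = 0.01072). The collagen lysyl hydroxylase Plod2 went from 254, 328 and 307 to 449, 380.3 and 399.6 (0.47 ± 0.11, adjusted p = 0.03636). The Rag GTPase Rragd was at -0.62 ± 0.23 (adjusted p = 0.1961).

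**Figure D5:**
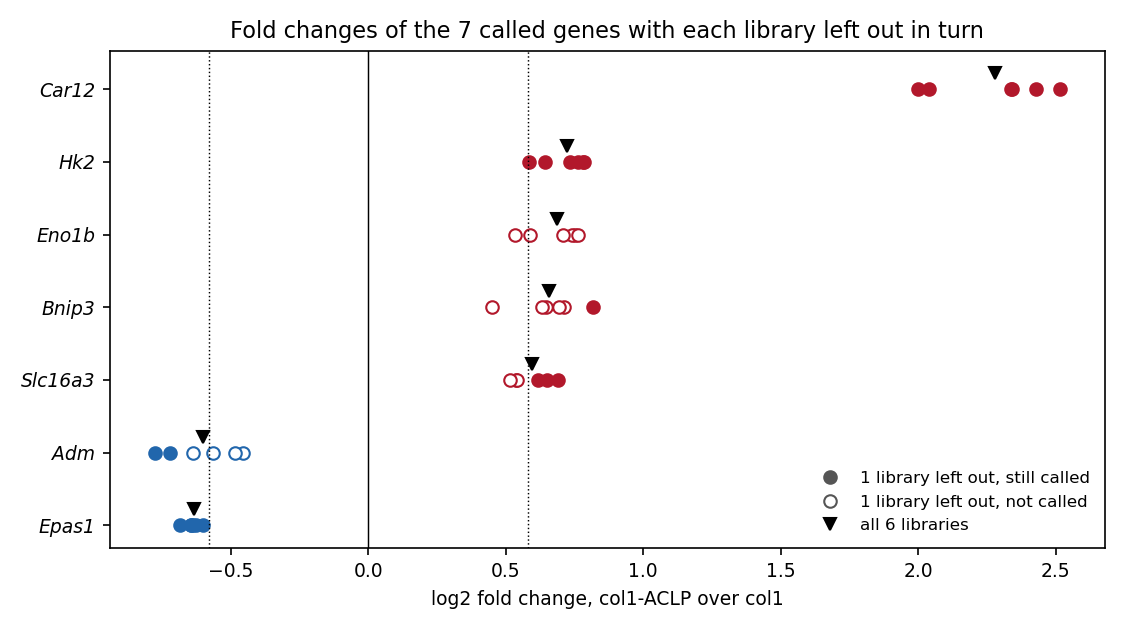
Log2 fold change of the 7 called genes with all 6 libraries (triangles) and with each library left out in turn (circles, filled where the gene was still called). Car12, Hk2 and Epas1 kept their call in all 6 omissions, whereas Slc16a3 kept it in 3, Adm in 2, and Eno1b and Bnip3 in 1 each.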

How the data were processed

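Polyadenylated RNA of 6 libraries was sequenced by the authors as paired reads and mapped with HISAT2. The authors deposited raw counts per gene in whole numbers, 1 column per library, with the position and length of each gene. The submitters' processing notes name mm10 and the study's methods GRCm39. Gene starts in the table lay within 1000 bases of GENCODE vM39 (GRCm39) for 92.01% of the 56017 shared identifiers. The counting program, its use of strand and its treatment of reads with several positions were not given in the sources used here.

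Libraries were grouped by title and matched to columns by the names their labels quote, with 0 other per-sample columns. Counts were filtered with filterByExpr (minimum count 10, minimum total 15), normalized by TMM and tested with the edgeR 4.0.16 quasi-likelihood test (two-sided, group as the only factor, Benjamini-Hochberg over 17717 genes) in R 4.3.3. The study used DESeq2, which was run as an alternative (1.42.0), as were limma-voom (limma 3.58.1), other size factors, no filter, a replicate block and omission of each library. The fit was tested on simulated data. CPM used TMM-scaled library sizes, and levels per kilobase divided them by the table's gene length. Floors cover counting error only, and fold-change intervals (95%) also cover the spread that edgeR fitted. Replicates differed by more than sampling noise. Sequence shared with other genes was measured as shared 31-base words in GENCODE transcripts.

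Genes named were all members, and from other lists those past an adjusted p of 0.05 plus the 2 largest changes per list, of which 1 is not reported here. Hk3, Calcrl, Ramp2 and Ramp3 were named after their values were seen. Members and lists were chosen with earlier results of these data known.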

Additional observations from a re-analysis of the deposited data

How the results depend on the processing

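The number of genes called over the whole table was 245, between 194 and 326 under other size factors, DESeq2, limma-voom and the replicate block, 364 without the fold threshold, and 389 with no filter on low counts, where 31605 genes were tested. It ranged from 148 to 289 with 1 library left out. Called glycolysis genes numbered 5 without the fold threshold and 1 to 4 with 1 library left out, and called genes among the other 16 numbered 2 to 3 with 1 library left out. The median of the glycolysis genes ranged from 0.05 to 0.19 over the omissions and that of the others from 0.16 to 0.22. Outside the omissions, 3 single calls were lost: Slc16a3 with upper-quartile factors (0.57), and Eno1b (adjusted p = 0.07269) and Adm (adjusted p = 0.1109) with the replicate block. Car12, Hk2, Epas1 and Bnip3 kept their calls in all 6 alternative fits that used every library. The cause of the lost calls was not tested. The block gave 194 calls over all genes, 2 among the glycolysis genes and 3 among the others, with medians of 0.13 and 0.18, and took the adjusted p of Pfkfb3 to 0.06166, of Pgam1 to 0.08162, of Ak4 to 0.1103 and of Egln1 to 0.1377. Same-numbered libraries did not deviate together (correlations of -0.03 to -0.01), so the numbers were not read as pairs. Aldoc and Ankrd37, the members with the fewest counts, had the widest intervals.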
